A study of Mus musculus with 21 samples.

Results

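The comparison set mouse embryonic stem cells grown in LIF alone for the culture span labelled LP against the same line at its 2i+LIF PO start. It held 6 of the 21 libraries of the series, 3 labelled LIF LP and 3 labelled 2i+LIF PO, chosen by label only. All came from E14Tg2a, a male line of 129 background in which 1 of the Rex1 (Zfp42) alleles carries a gene for a destabilised green fluorescent protein. The growth text was the same for both groups: NDiff227 medium with 3 uM of CHIR99021 and with PD0325901 for 1 week, after which CH (CHIR99021), PD (PD0325901) and LIF were given and taken away in turn from passage to passage. The label 2i+LIF is read here as both inhibitors with LIF, and PO as zero passage. The series sampled cells at zero passage, 1 month and 2 months, and the labels do not say which of these LP stands for. The groups therefore share the line, the reporter allele, the early inhibitor treatment and LIF itself, and differ in the labelled medium and in time in culture, which cannot be told apart here. Another group, of 3 libraries labelled 2i+LIF LP, is used where a difference in medium at LP is asked for. For some genes 3 libraries labelled CH+LIF LP, read as CHIR99021 with LIF, are set beside these.

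LIF is a cytokine that keeps mouse embryonic stem cells self-renewing by activating STAT3. CHIR99021 inhibits GSK3, the kinase that marks beta-catenin for destruction, and so raises Wnt target genes. PD0325901 inhibits MEK, the kinase that activates ERK, and so lowers the genes that ERK switches on, many of which are feedback inhibitors of the same pathway. With both inhibitors, cells are held in the naive state of the early epiblast, in which DNA methylation is low. The question the comparison addresses is what changes in the transcriptome when cells of that state are carried on in LIF without the inhibitors.

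Whole-number counts per gene were deposited, with 2998748, 3783043 and 3334065 gene counts in the PO libraries and 1501799, 1298051 and 1916962 in the LIF LP libraries. Levels are given as CPM on TMM-scaled library sizes, so they compare a gene between libraries but not 1 gene with another. Where 3 values are given for a group they stand in the order of replicates 1, 2 and 3. By their file names the PO libraries were sequenced apart from the remaining 18, so every difference from PO is also a difference between runs, and these cannot be told apart. The PO replicate 1 library stood apart: 39.1% of its gene counts were mitochondrial, against 7.55% and 7.83% in its replicates and 8.01%, 3.08% and 2.74% in LIF LP. The mean difference in this share was -13.5 percentage points (two-sided exact permutation test, p = 0.3, where 3 against 3 cannot give less than 0.1), and -3.08 without PO replicate 1. No replicate pair agreed within counting noise, and nothing states that replicates were separate cultures, so p-values measure the spread between these libraries only.

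The marker check kept the label of embryonic stem cells for both groups. The summed level of 8 stem cell markers was 2050 to 2500 CPM in PO and 1990 to 2120 CPM in LIF LP. Of the 8, 3 were called lower (6.11% of all tested genes were) and 0 higher, and 0 were called lower without PO replicate 2 or without any 1 LIF LP library; 6 of the 8 did not overlap between the groups, against 31.7% of all tested genes. Trophectoderm markers summed to at least 106 CPM in each PO library and to 46.5 to 82.6 CPM in LIF LP, with 1 of 5 tested called lower, and 0 without PO replicate 2, PO replicate 3, LIF LP replicate 2 or LIF LP replicate 3. The 10 primitive endoderm markers summed to at most 6.48 CPM in PO and 4.96 CPM in LIF LP, with Sox17, Foxa2, Afp and Ttr at 0 in all 6 libraries. Mesendoderm markers summed to 16.7 to 21.4 CPM in PO and 3.32 to 13.2 CPM in LIF LP, and most of that was Eomes. Among the libraries labelled 2i+LIF LP, the ERK target Dusp6 had 0.701, 34.4 and 26.3 CPM, against 3.69, 2.61 and 2.24 CPM in PO. Etv4, another target, had 135.3, 168.8 and 161.0 CPM there against 4.75, 6.54 and 4.49 in PO. For Dusp6 replicates 2 and 3, and for Etv4 all 3 libraries, stood at a level that goes against a label naming MEK inhibition, and comparisons with 2i+LIF LP are read with that in view.

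**Figure D1:**
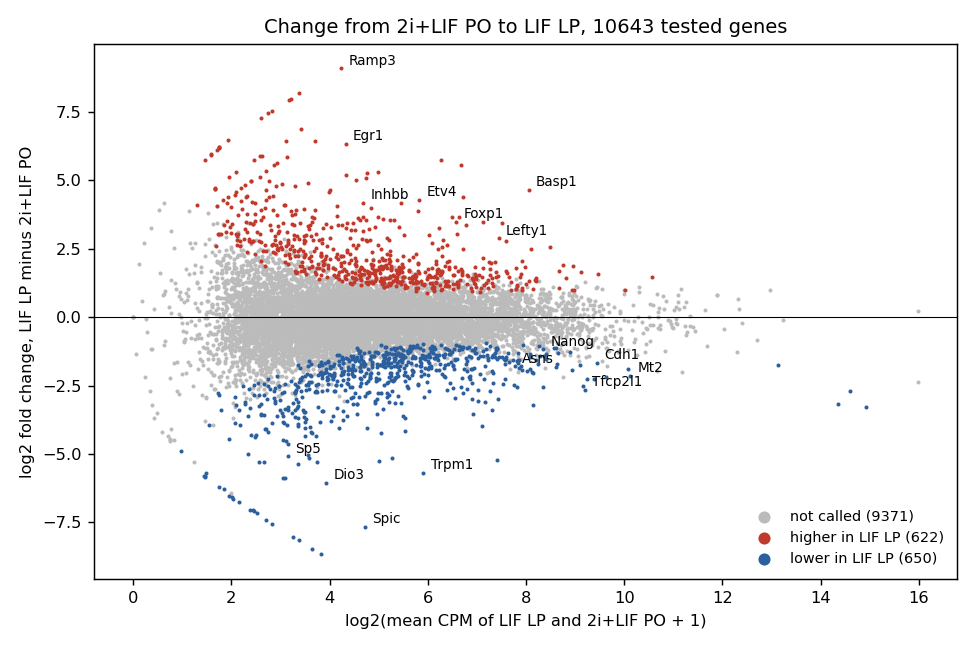
Each point is 1 of the 10643 tested genes, with its mean level over both groups on the x axis (log2 of mean CPM + 1) and its log2 fold change, LIF LP minus 2i+LIF PO, on the y axis. Red points (622) were called higher and blue points (650) lower, and the labelled genes span from Ramp3 at 9.10 to Spic at -7.66.

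Of 10643 genes tested, 1272 (12.0%) were called at an adjusted p under 0.05 by edgeR's quasi-likelihood test, 622 (5.84%) higher in LIF LP and 650 (6.11%) lower. The median size of a called change was 2.01 on the log2 scale, and 311 rises and 328 falls were at least 2 on that scale. Of the called genes, 1210 had no overlap between the 6 libraries, a condition that 3377 of all tested genes (31.7%) met. Without PO replicate 1 the fit called 1491 genes, and 989 of the 1272 kept their call and direction. Leaving out 1 LIF LP library left 571 to 808 calls, with the lowest count without LIF LP replicate 2; leaving out PO replicate 2 or 3 left 825 or 852.

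The largest rises were genes with no or hardly any counts at the start. Ramp3, an accessory protein of calcitonin-family receptors (chromosome 11, 6658521 to 6677475 in GRCm38), had no counts in any PO library and 22.0, 51.1 and 34.1 CPM in LIF LP, at least 134-fold higher when the group's 0 is taken as 3 counts (log2 difference 9.10 ± 1.02 [SE], edgeR adjusted p = 7.6e-06). Taf7l, Pdyn, Nhs, Tmem45a, Fgf1, Usp51 and Pax6 also had no PO counts, with rises of at least 22.9-fold (Pax6) to at least 72.9-fold (Taf7l). Pdyn encodes the precursor of dynorphin opioid peptides, and Fgf1 a fibroblast growth factor, with 13.8, 8.63 and 12.0 CPM in LIF LP. Slc27a2, a fatty acid transporter and acyl-CoA synthetase, had 1 count in 1 PO library and 22.6, 15.3 and 20.2 CPM in LIF LP. Hist1h4d (a histone H4 gene), Spink1 (a protease inhibitor) and Egr1 (an immediate-early transcription factor) completed the 12 largest rises, with log2 fold changes of 6.43, 6.43 and 6.35. All 12 were called under each alternative that could be fitted.

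The largest falls ended at no counts in LIF LP, or at 1. Pglyrp1, a peptidoglycan-binding protein of innate immunity, had 26.9, 23.0 and 29.7 CPM in PO and none in LIF LP, a fall of at least 40.1-fold. Sp100, a nuclear body protein, was at least 38.7-fold lower, from 10.0, 35.3 and 23.7 CPM. Ffar2 (a receptor for short-chain fatty acids), Slc24a5 (a cation exchanger of pigment organelles), Fam169b, Lhfpl2, Plbd1, Tnni1 (a troponin of slow muscle), Srarp, Rasgrp1 (a Ras exchange factor) and AA986860 were likewise without counts in LIF LP, and their bounds ran from 10.9-fold (Rasgrp1) to 25.0-fold (Ffar2). Spic, an ETS-family transcription factor, had 52.2, 51.5 and 48.4 CPM in PO against 1 count in LIF LP, a ratio of 228 with a 95% interval of counting error of 40.8 to 9043. All 12 kept their call under each alternative that could be fitted.

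Among abundant genes the changes were smaller. The falls with the highest levels were led by the metallothionein Mt2 with 558, 2154 and 2722 CPM in PO and 370, 337 and 525 in LIF LP (log2 difference -2.14 ± 0.52 [SE], edgeR adjusted p = 0.0084). Its neighbour Mt1, also a metal-binding metallothionein, went from 359, 1216 and 1722 to 188, 212 and 284 CPM. Cdh1, which encodes E-cadherin, had 922, 1340 and 919 CPM in PO and 358, 353 and 285 in LIF LP. On the rising side Snrpd3 (a spliceosome core protein), Swi5 (a recombination cofactor) and Prmt1 (an arginine methyltransferase) gained 1.89, 1.91 and 1.68 on the log2 scale. The rises of Top2a, Cct5 and Ppp2r2a, of 0.98, 1.01 and 1.08, were less secure, with adjusted p up to 0.16, 0.22 and 0.087 under the alternatives, among them each LIF LP library left out. Mt2 lost its call without LIF LP replicate 2 (adjusted p = 0.057). Rplp1 and Rps23, ribosomal protein genes whose copies may share reads, were lower but lost the call without PO replicate 2 or LIF LP replicate 2, and Rplp1 also without LIF LP replicate 1 (adjusted p up to 0.0699 and 0.0689).

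**Figure D2:**
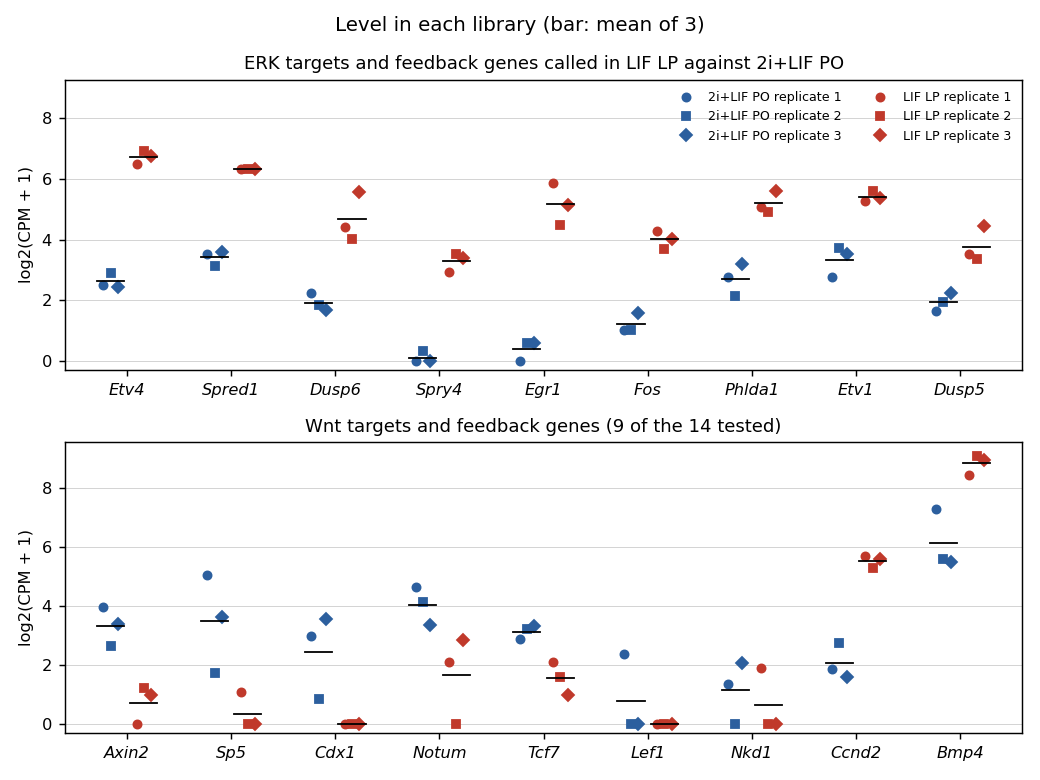
Levels as log2(CPM + 1) in each of the 3 PO (blue) and 3 LIF LP (red) libraries, with a marker per replicate and a bar at the mean. The upper panel shows only the 9 ERK genes called higher, and in each every LIF LP library lies above every PO library. Over the 15 tested genes of that list, 11 did not overlap between the groups, against 31.7% of all tested genes. In the lower panel Axin2, Sp5, Cdx1, Notum and Tcf7 have every LIF LP library below every PO library, and Ccnd2 and Bmp4 lie above.

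Of the 20 ERK target and feedback genes listed, 15 were tested, and most of these were higher in LIF LP. Of the 15 tested, 9 were called higher and 0 lower, against 5.84% of all tested genes higher, and the median log2 fold change of the 15 was 2.16 against -0.0777 over all genes. Etv4, an ETS transcription factor induced by FGF-ERK signalling (chromosome 11, 101769742 to 101785371), had 4.75, 6.54 and 4.49 CPM in PO and 88.7, 121 and 108 in LIF LP (log2 difference 4.30 ± 0.42 [SE], edgeR adjusted p = 2.5e-07). The LIF LP libraries lay far above all PO libraries and close to each other. Its relative Etv1 had 5.80, 12.3 and 10.5 CPM against 38.0, 47.8 and 40.4.

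Feedback inhibitors of the pathway were among the rises. Dusp6, a phosphatase that switches ERK off, had 3.69, 2.61 and 2.24 CPM in PO and 20.4, 15.3 and 47.1 in LIF LP (log2 difference 3.30 ± 0.69 [SE], edgeR adjusted p = 0.0028), with LIF LP replicate 3 the highest. Spred1, which restrains Ras, had 10.6, 7.84 and 11.2 CPM against 79.9, 79.7 and 79.4, nearly the same in all LIF LP libraries. Spry4, a Sprouty inhibitor of receptor signalling, had 1 count over the PO libraries and 6.61, 10.6 and 9.62 CPM in LIF LP. Dusp5, a nuclear ERK phosphatase, was called (log2 fold change 2.16 ± 0.66, SE) but lost the call without any 1 PO library or without LIF LP replicate 2 or 3, at adjusted p of 0.051 to 0.15. The other 8 were called under each alternative that could be fitted, and leaving out 1 library at a time left 8 or 9 of the 15.

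Some immediate-early genes were among the rises. Egr1 had 0, 0.523 and 0.499 CPM in PO and 57.8, 21.2 and 34.1 in LIF LP (log2 difference 6.35 ± 1.02 [SE], edgeR adjusted p = 0.00028). Fos had 1.06, 1.05 and 1.99 CPM against 18.7, 12.0 and 15.4, and Phlda1 5.80, 3.40 and 8.23 against 32.5, 29.2 and 48.1. The immediate-early genes Ier2, with 38.5, 49.4 and 37.4 CPM in PO and 72.2, 53.1 and 45.2 in LIF LP, and Ier3, with 5.28, 8.63 and 18.2 against 25.9, 26.6 and 18.8, were not called under any alternative, nor was Junb, a member of the LIF list. Other members that were not called included Etv5, with 141.4, 244 and 316 CPM in PO and 196, 301 and 224 in LIF LP, and Spry2, with 157.2, 176 and 126 against 193, 216 and 303. Myc did not pass the filter on low counts and had no PO counts and 0.551, 3.98 and 6.73 CPM in LIF LP.

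Against the libraries labelled 2i+LIF LP, sequenced in the same run as LIF LP, 0 of these 15 were called, where 0.489% of all tested genes were, so the count says nothing particular of the list; the median log2 difference was 0.105. Etv4 was -0.55 ± 0.35 (SE) in that comparison and Dusp6 0.41 ± 0.60, neither of them called (edgeR adjusted p = 0.55 and 0.85). Dusp6 in 2i+LIF LP ran from 0.701 to 34.4 CPM. From PO to 2i+LIF LP, which shares the PO libraries with the main comparison, Etv4 changed by 4.86 and Dusp6 by 2.89 on the log2 scale.

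Wnt targets were lower at the median, with few calls. Of 14 tested, 3 were called lower and 2 higher, against 6.11% and 5.84% of all tested genes. The median log2 fold change was -2.10, or -1.35 without PO replicate 1, which had the highest Axin2 and Sp5 levels of the 3 PO libraries. The summed level of the 19 listed genes went the other way. It was 477, 180 and 217 CPM in PO and 535, 663 and 648 CPM in LIF LP. Axin2, the negative regulator that Wnt signalling itself induces (chromosome 11, 108920349 to 108950783), had 14.8, 5.23 and 9.47 CPM in PO and 0, 1.33 and 0.962 in LIF LP (log2 difference -3.58 ± 0.99 [SE], edgeR adjusted p = 0.019). Sp5, a transcription factor that is a direct beta-catenin target, had 32.2, 2.35 and 11.5 CPM against 1.10, 0 and 0, from 116 pooled counts to 2. Cdx1, a caudal-type homeobox gene, had 6.86, 0.784 and 10.7 CPM in PO and was without counts in LIF LP, which is at least 9.17-fold lower. These are thin counts: Axin2 had 4 counts over the LIF LP libraries, and its call was lost without any 1 of them (adjusted p = 0.051 to 0.084).

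Other members at low level pointed the same way without passing the test. Notum, which removes a lipid from Wnt proteins, had 24.3, 16.5 and 9.22 CPM in PO and 3.30, 0 and 6.25 in LIF LP (adjusted p = 0.08), and Tcf7, a nuclear partner of beta-catenin, 6.33, 8.37 and 8.97 against 3.30, 1.99 and 0.962 (adjusted p = 0.1). Lef1 had 4.22 CPM in PO replicate 1 and no counts in the other 5 libraries. The 2 list members called higher are also regulated by other pathways. Ccnd2, a D-type cyclin, had 2.64, 5.75 and 1.99 CPM in PO and 51.2, 37.8 and 47.6 in LIF LP (log2 difference 3.67 ± 0.64 [SE], edgeR adjusted p = 0.00057). Bmp4, a ligand of the BMP pathway, rose by 2.50 ± 0.68, and lost its call without PO replicate 2, PO replicate 3 or LIF LP replicate 2 (adjusted p up to 0.076).

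Axin2 and Sp5 were also called lower against 2i+LIF LP, with log2 fold changes of -4.19 ± 0.98 and -6.07 ± 1.08 (SE; edgeR adjusted p = 0.048 and 0.0049), which no run difference enters. In that group Sp5 had 62.4, 18.5 and 8.39 CPM and Axin2 28.8, 14.2 and 1.68 CPM, so the libraries differed among themselves. In CH+LIF LP, of the same run, Sp5 had 0.969, 0.605 and 1.52 CPM and Axin2 0, 4.84 and 10.6 CPM. LIF LP was not called different from CH+LIF LP for Sp5 (log2 difference -1.29 ± 1.64, SE) or Axin2 (-2.59 ± 1.08, SE). The label CH+LIF also names CHIR99021, and the part of the inhibitor in these falls was not tested. The promoter of Sp5 is shown because it was the only 1 of 12 list genes with a promoter window here to hold the letters CTTTGAT, a core that TCF and LEF factors recognise. The window runs from 250 bases before to 30 bases after the start of the gene (chr2:70474673-70474952, plus strand, from RefSeq on GRCm38.p6), 5′ to 3′, with the match in capitals.
Sp5: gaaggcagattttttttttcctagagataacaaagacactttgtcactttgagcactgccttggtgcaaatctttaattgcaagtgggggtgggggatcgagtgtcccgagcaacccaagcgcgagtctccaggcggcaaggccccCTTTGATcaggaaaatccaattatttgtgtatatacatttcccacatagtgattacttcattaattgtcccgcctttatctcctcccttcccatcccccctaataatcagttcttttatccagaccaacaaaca

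The match begins 104 bases before the start. That motif, searched on both strands, was in 1 of the list's 17 windows and in 3.73% of all 32851 promoter windows of 300 bases. The match is a description of the letters, not a measured binding site.

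**Figure D3:**
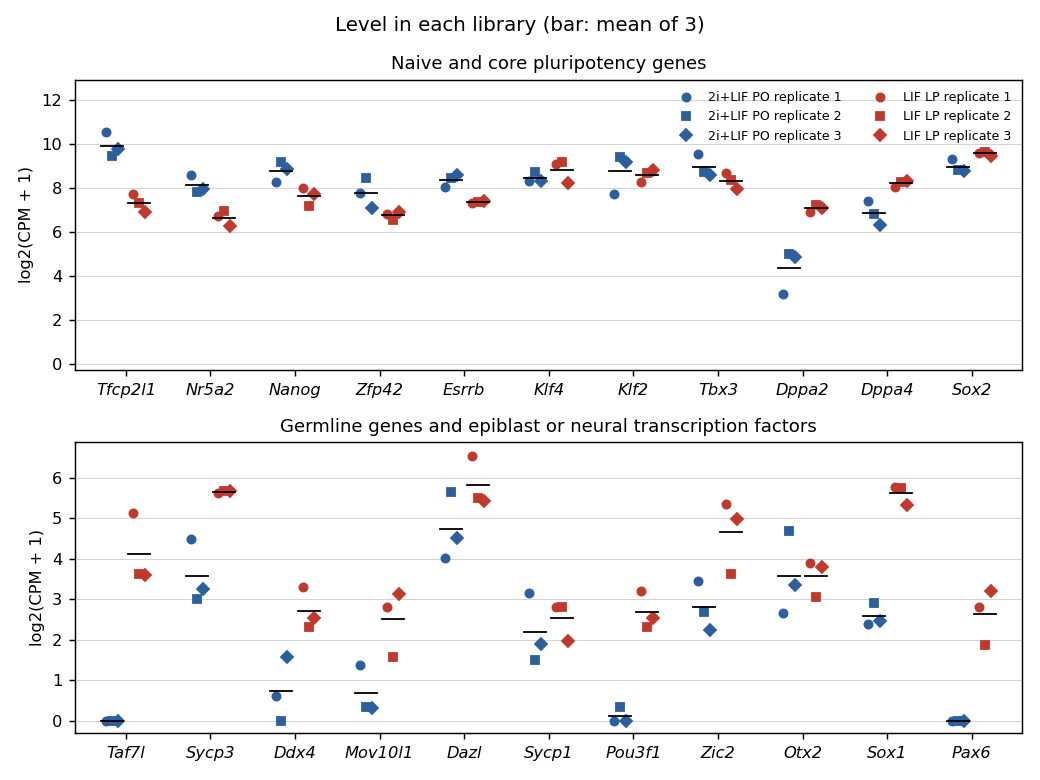
Levels as log2(CPM + 1) in each PO (blue) and LIF LP (red) library for naive and core pluripotency genes (upper panel) and for germline, epiblast and neural genes (lower panel), with a bar at the mean of 3. Tfcp2l1 shows the widest gap among the naive genes and Klf4 and Klf2 overlap; Taf7l and Pax6 are at 0 in all PO libraries.

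Naive pluripotency factors were lower or did not pass the test. Of 15 tested, 5 were called lower (6.11% of all tested genes were) and 0 higher, with a median log2 fold change of -0.777. Tfcp2l1, a transcription factor that acts downstream of LIF and of GSK3 inhibition (chromosome 1, 118627945 to 118685168), had 1477, 687 and 861 CPM in PO and 205, 158.7 and 117 in LIF LP (log2 difference -2.65 ± 0.46 [SE], edgeR adjusted p = 0.00058). It was called under every alternative. In a bulk sample, fewer cells with a transcript and less of it per cell cannot be told apart.

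The other 4 changed less, and without any 1 LIF LP library only Tfcp2l1 of the list stayed called. Nanog, a homeobox factor that sustains self-renewal, had 308, 579 and 460 CPM in PO and 250, 141.4 and 206 in LIF LP (log2 difference -1.17 ± 0.37 [SE], edgeR adjusted p = 0.039). Zfp42 (Rex1), the reporter gene of the line, had 217, 343 and 135 CPM against 110, 91.6 and 116, and how the knock-in allele enters these counts was not tested. Esrrb, an orphan nuclear receptor that CHIR99021 is known to raise, had 256, 341 and 381 CPM against 155.9, 159.3 and 167, and Nr5a2, another orphan receptor, 384, 223 and 246 against 102, 121 and 74.5. In each of the 4 the groups did not overlap, as in 1210 of the 1272 called genes and 31.7% of all tested genes. The highest adjusted p under the alternatives was 0.19 for Nanog without LIF LP replicate 2 and 0.23 for Zfp42 without PO replicate 2. It was 0.145 for Esrrb without PO replicate 3 and 0.0955 for Nr5a2 without LIF LP replicate 3; Nr5a2 was also not called without PO replicate 1 (0.062).

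Members at high level that were not called include Klf4, a Krüppel-like factor, with 314, 417 and 314 CPM in PO and 541, 576 and 293 in LIF LP, and Klf2, with 210, 667 and 567 against 304, 398 and 445. Tbx3, a T-box repressor, had 729, 414 and 380 CPM against 399, 319 and 242 (log2 fold change -0.67 ± 0.34, SE). Prdm14, which keeps DNA methylation low in naive cells, had 24.8, 23.3 and 24.7 CPM against 8.81, 9.96 and 4.81, and its adjusted p was 0.068. Dppa3 had no counts in LIF LP and 4.75, 2.88 and 0.499 CPM in PO. Against 2i+LIF LP 0 of the 15 naive genes were called, near the 0.489% of all tested genes, and Zfp42 and Esrrb differed by 0.22 ± 0.35 and 0.04 ± 0.33 (SE).

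Of 13 general pluripotency genes tested, 3 were called higher and 1 lower, against 5.84% and 6.11% of all tested genes. Dppa2, a chromatin-associated factor of pluripotent cells, had 7.91, 30.6 and 27.7 CPM in PO and 118, 145.4 and 133 in LIF LP (log2 difference 2.55 ± 0.46 [SE], edgeR adjusted p = 0.00085), and its partner Dppa4 had 168, 109 and 78.8 against 258, 299 and 318. Lin28a, an RNA-binding protein that blocks let-7, had 19.0, 14.4 and 20.9 CPM against 45.7, 76.4 and 74.1. Dppa2 alone of these was called without LIF LP replicate 2, LIF LP replicate 3 or PO replicate 2. Sox2, at 623, 446 and 427 against 756, 789 and 700 CPM, was not called (adjusted p = 0.27). Pou5f1 (Oct4) had 30.6, 25.9 and 31.2 CPM against 35.3, 88.3 and 50.02, and Dppa5a, called lower, 181, 969 and 376 against 43.5, 15.9 and 105; both have near-identical copies, so their unique counts are uncertain. Dppa5a lost its call without PO replicate 2 or LIF LP replicate 2 (adjusted p up to 0.0654).

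Genes of the formative and primed epiblast, the states that follow the naive one, gave 3 of 11 called higher and 1 lower, against 5.84% and 6.11% of all tested genes. The lower call was Krt18, a keratin, and it was lost without PO replicate 1, LIF LP replicate 2 or LIF LP replicate 3. Pou3f1 (Oct6), a POU factor of the formative state, had 1 count in PO and 8.26, 3.98 and 4.81 CPM in LIF LP. Zic2, a zinc finger factor, had 10.0, 5.49 and 3.74 CPM against 40.2, 11.3 and 30.8. Otx2, a homeobox factor of the early formative state, overlapped between the groups at 5.28, 24.8 and 9.22 against 13.8, 7.30 and 13.0 CPM, and Fgf5 had at most 0.962 CPM in any library. Dnmt3a, a de novo DNA methyltransferase, had 26.4, 10.7 and 14.0 CPM against 32.5, 27.9 and 65.9, with an adjusted p of 0.25 without LIF LP replicate 3. Without PO replicate 2 or PO replicate 3, Pou3f1 alone of the 3 rises stayed called.

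Neural markers gave 3 rises and 1 fall among 7 tested, against 5.84% and 6.11% of all tested genes. Sox1, an early neural transcription factor, had 4.22, 6.54 and 4.49 CPM in PO and 53.4, 53.1 and 39.4 in LIF LP (log2 difference 3.23 ± 0.72 [SE], edgeR adjusted p = 0.0045). Pax6 had no PO counts and 6.06, 2.66 and 8.18 CPM in LIF LP. Tubb3, a neuronal tubulin, was called but not without PO replicate 1 (adjusted p = 0.064), LIF LP replicate 2 or LIF LP replicate 3, nor with only the groups compared (up to 0.0695), and Nefm, a neurofilament subunit called lower though its groups overlap, was likewise lost without PO replicate 1 (0.11). Nefm was also not called without PO replicate 3, LIF LP replicate 1 or LIF LP replicate 3, and its adjusted p ran up to 0.168. The summed level of the 12 neural markers overlapped, at 133 to 369 CPM in PO and 281 to 290 CPM in LIF LP, and Neurog2, Dcx and Zic1 were at 0 in all 6 libraries.

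Germ cell genes that promoter DNA methylation is known to silence in other cells were higher in part; methylation itself was not measured. Of 16 tested, 4 were called higher (5.84% of all tested genes were) and 0 lower, with a median log2 fold change of 1.03, and without 1 library 1 to 3 of the 16 were called. Taf7l, a TFIID subunit of germ cells (chromosome X, 134460118 to 134476490), had no PO counts and 34.1, 11.3 and 11.1 CPM in LIF LP (log2 difference 8.18 ± 1.03 [SE], edgeR adjusted p = 2.7e-05), and was called under each alternative. Sycp3, a structural protein of meiotic chromosomes, had 21.6, 7.06 and 8.48 CPM against 48.5, 49.8 and 50.5 (log2 fold change 2.05 ± 0.61, SE). Ddx4, the germ cell RNA helicase, had 0.528, 0 and 1.99 CPM against 8.81, 3.98 and 4.81, and Mov10l1, a helicase of the piRNA pathway, 1.58, 0.261 and 0.249 against 6.06, 1.99 and 7.70. The calls of Sycp3, Ddx4 and Mov10l1 were lost under several omissions, LIF LP replicates 1 and 3 among them, at adjusted p up to 0.106, 0.18 and 0.155.

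Their promoters are shown because all 4 hold CACGTG, the E-box that the repressor complex PRC1.6 recognises through MGA and MAX. Each runs from 250 bases before to 30 bases after the gene start in RefSeq on GRCm38.p6, 5′ to 3′ on the gene's strand, with CACGTG in capitals: Taf7l at chrX:134476461-134476740 (minus strand), Sycp3 at chr10:88459337-88459616 (plus), Ddx4 at chr13:112652281-112652560 (minus) and Mov10l1 at chr15:88982744-88983023 (plus).
Taf7l: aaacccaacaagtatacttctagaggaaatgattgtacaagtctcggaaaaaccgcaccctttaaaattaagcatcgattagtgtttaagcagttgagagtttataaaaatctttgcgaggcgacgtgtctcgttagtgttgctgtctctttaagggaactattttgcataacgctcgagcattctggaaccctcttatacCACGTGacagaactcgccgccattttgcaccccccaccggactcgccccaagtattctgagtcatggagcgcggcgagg
Sycp3: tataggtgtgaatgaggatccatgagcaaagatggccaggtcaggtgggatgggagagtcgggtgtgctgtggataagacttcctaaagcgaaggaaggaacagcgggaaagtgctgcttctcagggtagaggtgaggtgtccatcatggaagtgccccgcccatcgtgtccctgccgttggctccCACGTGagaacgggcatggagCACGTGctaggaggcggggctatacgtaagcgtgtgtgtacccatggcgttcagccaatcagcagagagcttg
Ddx4: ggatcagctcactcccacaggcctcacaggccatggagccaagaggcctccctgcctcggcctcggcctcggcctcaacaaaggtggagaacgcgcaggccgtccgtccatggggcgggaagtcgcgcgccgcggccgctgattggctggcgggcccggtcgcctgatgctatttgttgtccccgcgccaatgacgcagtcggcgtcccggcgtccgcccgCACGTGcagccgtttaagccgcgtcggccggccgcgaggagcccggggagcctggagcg
Mov10l1: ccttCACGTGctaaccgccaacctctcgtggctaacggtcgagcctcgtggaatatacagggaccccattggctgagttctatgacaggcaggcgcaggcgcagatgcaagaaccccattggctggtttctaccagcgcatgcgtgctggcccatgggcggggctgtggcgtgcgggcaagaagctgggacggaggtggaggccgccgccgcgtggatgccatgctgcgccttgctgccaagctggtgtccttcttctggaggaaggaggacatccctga

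The E-box begins 49 bases before the start of Taf7l, 64 and 43 before that of Sycp3, 29 before that of Ddx4 and 246 before that of Mov10l1. Over the list, 11 of the 18 genes with a window held it. By window the count was 14 of 22, against 7.15% of all 32851 windows of 300 bases. The motif reads the same on both strands. The 7 others with a match, not called or not tested, include Sycp1, with 7.91, 1.83 and 2.74 CPM in PO and 6.06, 5.98 and 2.89 in LIF LP, and Hormad1 (adjusted p = 0.088). Dazl, an RNA-binding protein of germ cells, had no match in its window and 15.3, 48.9 and 21.9 CPM against 92.5, 44.5 and 42.3. The methylation machinery itself gave 2 rises in 11 (5.84% of all tested genes rose), Dnmt3a and Gadd45a, and 0 of these 11 without PO replicate 2, PO replicate 3 or LIF LP replicate 3. Dnmt3l had 15.3, 43.1 and 76.3 CPM in PO against 85.4, 134 and 114 (adjusted p = 0.12), and Uhrf1, the partner of Dnmt1, 86.0, 160.0 and 166 against 55.1, 54.4 and 90.4 (adjusted p = 0.14). Against 2i+LIF LP 0 of the 16 germline genes were called, near the 0.489% of all tested genes, and Taf7l had a mean of 19.4 CPM there and 18.8 in LIF LP.

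Among imprinted genes, which are expressed from 1 parental copy, 5 of 18 were called higher and 2 lower, against 5.84% and 6.11% of all tested genes. Mest, a hydrolase gene expressed from the paternal copy, had 0.528, 0 and 0 CPM in PO and 11.0, 5.98 and 13.5 in LIF LP (log2 difference 5.89 ± 0.98 [SE], edgeR adjusted p = 0.00037). Dio3, a deiodinase gene of the Dlk1-Dio3 locus, had 24.3, 36.9 and 23.4 CPM in PO and 2 counts in LIF LP, a ratio of 65.5 with a 95% interval of counting error of 18.0 to 544. Gnas had 80.2, 81.6 and 87.5 CPM against 246, 195 and 207, and Nnat, Peg3 and Cdkn1c also rose, by 3.92, 1.61 and 3.53. Peg3 lost its call without LIF LP replicate 1 (adjusted p = 0.062), Cdkn1c without LIF LP replicate 2 or 3 or PO replicate 2 or 3 (up to 0.13) and Igf2r, called lower, under several omissions (up to 0.18).

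Of 15 nodal and activin genes tested, 3 were called higher and 1 lower, against 5.84% and 6.11% of all tested genes. Inhbb, a subunit of activin B and inhibin B, had 2.11, 2.09 and 3.24 CPM in PO and 52.3, 40.5 and 47.6 in LIF LP (log2 difference 4.18 ± 0.67 [SE], edgeR adjusted p = 0.00028). Lefty1, a feedback inhibitor of Nodal, had 13.7, 68.2 and 40.4 CPM against 203, 387 and 324 (log2 difference 2.88 ± 0.56 [SE], edgeR adjusted p = 0.0015). Nodal itself, at 66.5, 57.5 and 76.5 against 41.9, 70.4 and 55.8 CPM, and Lefty2, at 154.1, 449 and 158.8 against 311, 541 and 530, were not called. Smad3, a signal transducer, had a log2 fold change of -2.29 ± 0.73, with an adjusted p of up to 0.17 under the alternatives.

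Lefty1 was also called higher against 2i+LIF LP (log2 difference 2.70 ± 0.56 [SE], edgeR adjusted p = 0.018), where it had 9.12, 65.9 and 64.3 CPM. Of 9 BMP genes tested, 4 rose (5.84% of all tested genes did) and 0 fell. Id1, a helix-loop-helix inhibitor that BMP induces, had 8.97, 6.01 and 3.74 CPM in PO and 52.9, 81.7 and 77.4 in LIF LP (log2 difference 3.54 ± 0.63 [SE], edgeR adjusted p = 0.00066). Bmp4 had 157.2, 47.1 and 44.1 CPM against 351, 547 and 499. The receptors Bmpr1a and Bmpr2 rose by 1.46 and 1.30, and Id1 alone of the 4 was called without PO replicate 2, PO replicate 3 or LIF LP replicate 2. Id1 did not differ from 2i+LIF LP beyond its error (log2 difference -0.11 ± 0.54, SE).

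Of the pathway of LIF, the factor both groups share, 2 of 15 tested genes were called higher and 1 lower, near the 5.84% and 6.11% of all tested genes. Jak1, the kinase that phosphorylates STAT3, had 84.4, 68.8 and 89.99 CPM in PO and 150.9, 186 and 134 in LIF LP, and Gbx2, a homeobox target of STAT3, 2.11, 0.784 and 2.99 against 10.5, 9.96 and 13.9; the fall was Tfcp2l1. Neither rise was called without PO replicate 2 or without LIF LP replicate 3. Over all alternatives Jak1 lost its call in 9 of 18, at adjusted p up to 0.178, and Gbx2 in 3 of 18, at up to 0.0883. Socs3, the feedback inhibitor of STAT3, had 32.2, 69.8 and 104 CPM against 57.3, 34.5 and 65.4 (log2 fold change -0.39 ± 0.54, SE), and Stat3 159.8, 240 and 228 against 120, 136 and 94.7 (-0.84 ± 0.51). Lifr, the receptor, had 236, 29.3 and 51.9 CPM against 94.2, 96.3 and 97.2, with PO replicate 1 far above its replicates; its log2 fold change was -0.13 with all libraries and 1.24 without that library (adjusted p = 0.036).

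**Figure D4:**
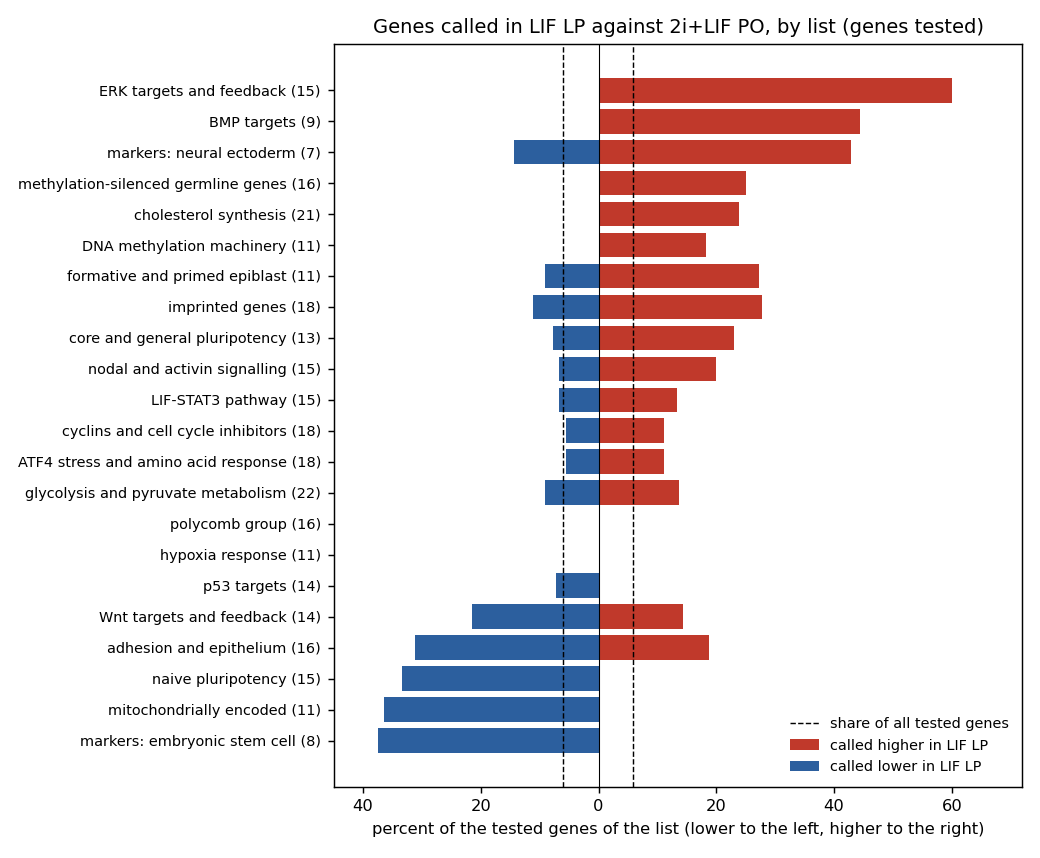
For each list with at least 7 tested genes, bars show the percent of its tested genes called higher (red, to the right) and lower (blue, to the left) in LIF LP against 2i+LIF PO, and the dashed lines the shares of all tested genes, 5.84% higher and 6.11% lower. ERK targets have the longest bar to the right, at 9 of 15, and the polycomb and hypoxia lists have no bar.

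Of 21 cholesterol synthesis genes tested, 5 were called higher (5.84% of all tested genes were) and 0 lower, with a median log2 fold change of 0.717. Mvd, which makes isopentenyl pyrophosphate, had 60.1, 58.6 and 42.9 CPM in PO and 188, 214 and 174 in LIF LP (log2 difference 1.83 ± 0.36 [SE], edgeR adjusted p = 0.0017). Pmvk, Fdps and Cyp51, which stand before and after it in the pathway, rose by 1.77, 1.28 and 1.19. Without LIF LP replicate 2 the count was 2 of 21, and Mvd was called under every alternative.

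Of the ATF4 stress response, 2 of 18 rose and 1 fell, near the 5.84% and 6.11% of all tested genes. Mthfd2, an enzyme of mitochondrial folate metabolism, had 26.9, 77.1 and 45.4 CPM against 272, 199 and 212, and Trib3, a pseudokinase that feeds back on ATF4, 3.69, 9.15 and 4.49 against 35.3, 58.4 and 35.6. Asns, which makes asparagine, went the other way, with 172, 325 and 520 CPM in PO and 116, 81.0 and 95.7 in LIF LP (log2 difference -1.80 ± 0.35 [SE], edgeR adjusted p = 0.0016), and it was also lower than in 2i+LIF LP (-1.56 ± 0.35, adjusted p = 0.032). Of 22 glycolysis genes 3 rose and 2 fell, against 5.84% and 6.11% of all tested genes, and 1 rose without LIF LP replicate 2 or LIF LP replicate 3. Slc16a3, a lactate transporter, lost its call in 6 of 18 alternatives and Pgam1, a mutase, in 3. Pdk1, which holds pyruvate back from mitochondria, had 12.7, 11.5 and 17.9 CPM against 61.1, 63.7 and 53.4, and Hk1, the first enzyme, 44.3, 66.2 and 87.0 against 15.4, 13.9 and 22.6. Gapdh, called lower, has many copies in the genome and its unique counts are uncertain. Of 11 mitochondrially encoded genes 4 were called lower (6.11% of all tested genes were). The count was 0 without PO replicate 1, the library rich in such reads, and also without LIF LP replicate 2.

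Of 16 adhesion genes 3 were called higher and 5 lower, against 5.84% and 6.11% of all tested genes. Besides Cdh1, the keratin Krt8 had 20.6, 11.8 and 55.3 against 2.75, 0 and 3.85 (log2 difference -3.62 ± 0.72 [SE], edgeR adjusted p = 0.0017). Vim, an intermediate filament gene of mesenchymal cells, had 13.7, 53.9 and 76.0 CPM against 316, 341 and 350 (log2 difference 2.79 ± 0.48 [SE], edgeR adjusted p = 0.00049). Cldn4, Krt18, Col4a1 and Itga6 each lost the call without LIF LP replicate 2 (adjusted p of 0.071 to 0.13). Among cyclins and their inhibitors, Ccnd2 and Mki67, a marker of cycling cells with 139, 59.1 and 76.3 against 332, 313 and 232 CPM, rose. Cdkn1a (p21), also the 1 of 14 p53 targets called, had 224, 401 and 530 CPM against 145.4, 142.1 and 171, and was not called without PO replicate 3, LIF LP replicate 1 or LIF LP replicate 2 (adjusted p up to 0.106). Of 16 polycomb and 11 hypoxia genes edgeR called 0, and leaving out PO replicate 1 gave 1 each. With limma-voom and quality weights 5 and 4 were called, near the 30.8% of all tested genes called in that fit.

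**Figure D5:**
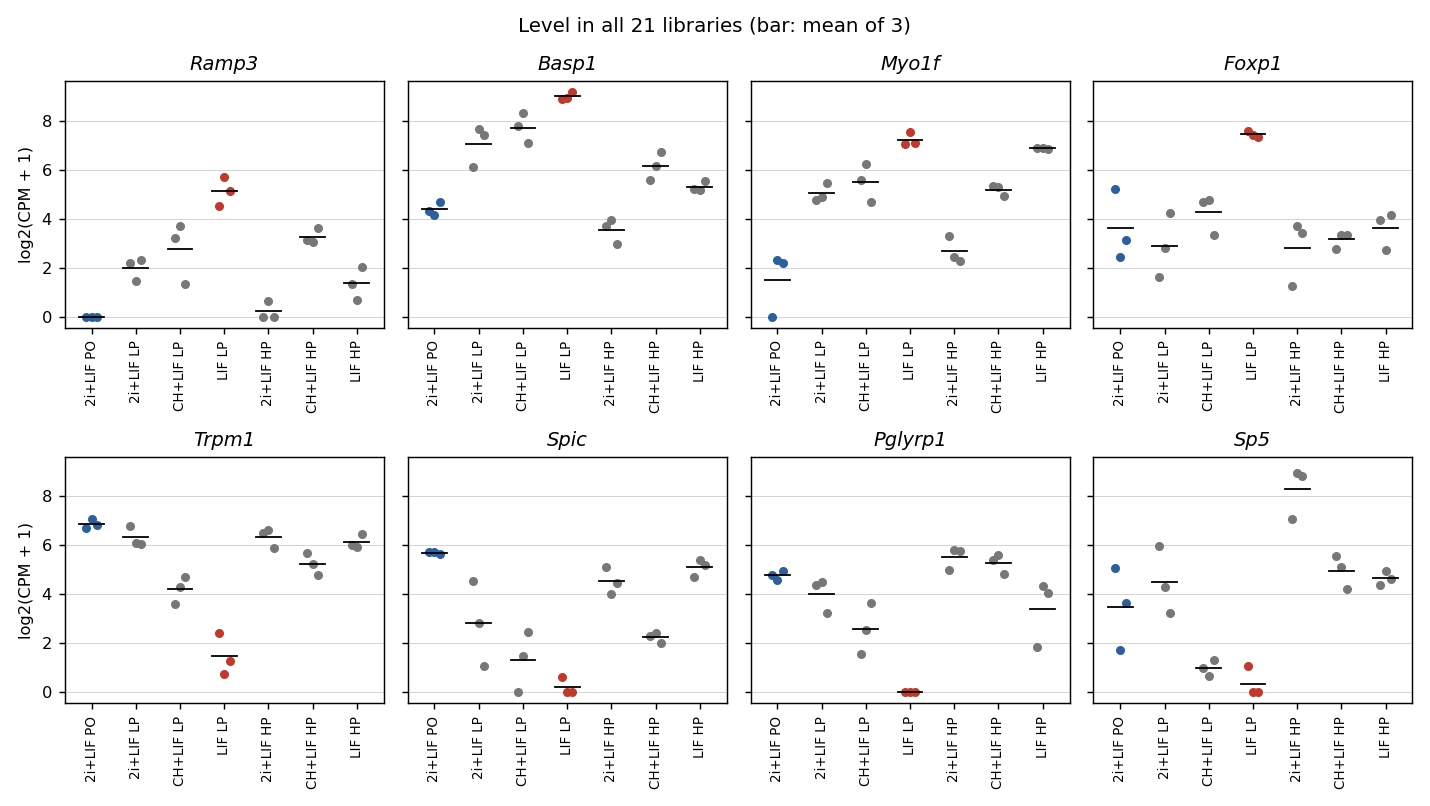
Levels as log2(CPM + 1) in all 21 libraries of the series for 8 of the genes called the same way against 2i+LIF PO and against 2i+LIF LP, with PO in blue, LIF LP in red and a bar at the mean of 3. In the upper row LIF LP has the highest mean of the 7 groups and in the lower row the lowest. The genes were chosen by those calls, which favours such an order.

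A difference that no run difference enters was asked of LIF LP against 2i+LIF LP. There 52 genes (0.489%) were called, 12 (0.113%) higher and 40 (0.376%) lower in LIF LP, and 48 of them were also called in the same direction against PO (12 higher, 36 lower); both comparisons use the same LIF LP libraries, so this overlap is not independent. Of the 48, LIF LP had the highest mean of all 7 groups in 12 and the lowest in 35. As each was called the same way against PO and 2i+LIF LP, the choice itself favours such an order. Against CH+LIF LP, also of that run, LIF LP was called for Trpm1, Nefm and 1700097N02Rik alone of the 48. Trpm1, a cation channel of pigment and retinal cells (chromosome 7, 64153835 to 64269775), had 103, 134 and 112 CPM in PO, 110, 68.0 and 66.0 in 2i+LIF LP and 4.41, 0.664 and 1.44 in LIF LP (log2 fold change against PO -5.68 ± 0.51, SE; edgeR adjusted p = 1.8e-07). Against 2i+LIF LP it was -5.16 ± 0.50 (adjusted p = 7.9e-07). Its mean in the other 4 groups ran from 18.3 to 81.1 CPM.

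Pglyrp1, Slc24a5, Spic, Lhfpl2 and Srarp were the other large falls of this kind, with mean levels in 2i+LIF LP of 16.5, 7.92, 9.86, 6.45 and 8.46 CPM. Their means in CH+LIF LP were 6.06, 0.767, 2.12, 1.91 and 2.18 CPM. Each but Srarp was also called lower in CH+LIF LP than in PO (edgeR adjusted p up to 0.024). Of the rises, Basp1, a membrane-bound protein of growth cones, had 19.0, 16.7 and 24.9 CPM in PO, 68.7, 198 and 170 in 2i+LIF LP and 474, 487 and 569 in LIF LP (log2 fold change against PO 4.65 ± 0.45, SE; edgeR adjusted p = 2.5e-07). Myo1f, an unconventional myosin, had 0, 3.92 and 3.49 CPM in PO and 132, 185 and 136 in LIF LP, and its mean in 2i+LIF LP was 32.3 CPM. Polr3gl, a subunit of RNA polymerase III, had 4.75, 6.80 and 1.99 CPM in PO and 67.7, 108 and 68.3 in LIF LP, against a mean of 11.6 in 2i+LIF LP. Foxp1, a forkhead factor chosen here after its values were seen, had 36.4, 4.44 and 7.73 CPM in PO and 189, 167 and 160.6 in LIF LP, and means of 7.66 to 19.9 CPM in the other 6 groups. Ramp3, Pdyn and Slc27a2 had means of 3.05, 0.473 and 2.28 CPM in 2i+LIF LP and 35.8, 16.6 and 19.4 in LIF LP. The 13 genes named here, Trpm1 included, were taken from the 48, so their calls in both comparisons were fixed by the choice. Against CH+LIF LP only Trpm1 of them was called (log2 difference -3.00 ± 0.51, SE, edgeR adjusted p = 0.012).

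With 3 libraries fitted alone against 3, without the other groups to estimate the spread, the fit called 826 genes against PO and 3 against 2i+LIF LP, 0 higher and 3 lower, so that all 12 rises against 2i+LIF LP lost their call. Leaving out LIF LP replicate 2 left 13 genes called against 2i+LIF LP, and leaving out 2i+LIF LP replicate 1, of which 31.7% of gene counts were Gm42418, left 23.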

How the data were processed

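RNA-seq of 21 mouse libraries (7 groups of 3) was used. The authors deposited whole-number counts per gene for 31053 Ensembl gene IDs; per the submitters' processing notes bcl2fastq, STAR 2.6.0a, HTSeq and the build mm10 were used, and the annotation, strand setting and filters are not given in the sources used here. Each table ends in 5 summary entries, which were left out of library sizes and tests; 8.46% to 25.8% of a library's entries were reads in no feature. Because strand is not stated, overlapping genes (11038 of the listed IDs; 448 of the called genes) cannot be told apart from their partners. GENCODE M21 on GRCm38 gave names for 31011 IDs.

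The counts of all 21 libraries were fitted in 1 model with a coefficient per group (edgeR 4.0.16 in R 4.3.3, TMM scaling, filterByExpr, quasi-likelihood test, 14 residual degrees of freedom), which left 10643 genes, Benjamini-Hochberg adjusted over all of them at 0.05. Gene counts per library ran from 1132126 to 3783043; a count of 0 was bounded as 3 counts over a group. CPM are TMM-scaled, whereas fold bounds and ratios come from pooled counts without TMM, and intervals and bounds cover counting error only. Named genes are all members of the gene lists, the 12 largest rises and falls and the 6 with the highest levels on each side (called also without PO replicate 1, at least 5 CPM in a group, no overlap between groups), and the 6 largest on each side also called against 2i+LIF LP. The members and lists were chosen with earlier results of these data known. Alternatives, 17 planned and 1 added after seeing the data, changed the test (DESeq2 1.42.0, limma 3.58.1), scaling, filter, depth, libraries, groups fitted and replicate block. The script was tested on simulated data. Some list members are not reported here by name, though counts over the lists include them.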

Additional observations from a re-analysis of the deposited data

Results flagged for a closer look

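For 52 genes the change from 2i+LIF PO differed between LIF LP and 2i+LIF LP by edgeR's quasi-likelihood test of that difference, 12 with the higher and 40 with the lower level in LIF LP, which is 0.489% of the genes tested. Because both changes start from the same PO libraries, this test is the direct comparison of the LP groups. Nefm, a neurofilament subunit, was among them, at -5.49 (log2 fold change, edgeR adjusted p = 7.9e-07). From PO it rose by 3.73 in 2i+LIF LP, from a mean of 14.2 to 185 CPM, while its change in LIF LP was -1.76, with overlapping groups and a call that was lost without PO replicate 1. Asns stood at -1.56 and Lefty1 at 2.70. DESeq2 called 1.44% of the genes it tested, and without LIF LP replicate 2 edgeR called 13 genes.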

How the results depend on the processing

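Each fit tested its own number of genes, so calls are also given as a share of the genes tested. Against 2i+LIF PO, where 1272 genes (12.0%) were called, limma-voom with quality weights called 3274 (30.8%), a fit of only the groups compared 826 (8.21%), and a fit without both libraries that stood apart (PO replicate 1 and 2i+LIF LP replicate 1, chosen after seeing the data) 2279 (20.8%). Leaving out 1 library at a time gave 571 (5.17%, without LIF LP replicate 2) to 1853 (16.8%, without 2i+LIF LP replicate 1). DESeq2 called 1675 (13.2%), its size factors 1284, no filter 1558 and thinned counts 1063. Against 2i+LIF LP, where 52 genes (0.489%) were called, DESeq2 called 1.44%, no filter on low counts 276 (1.46%), limma-voom with quality weights 116 (1.09%) and only the groups compared 3 (0.0326%). Leaving out 1 library there gave 13 (0.118%, without LIF LP replicate 2) to 130 (1.17%, without 2i+LIF LP replicate 3). The mitochondrial share differed by -18.9 to -3.08 points when 1 library was left out. Lifr reversed to 1.04 with limma-voom, to 1.24 without PO replicate 1 and to 1.24 without both libraries that stood apart, its values with 1 library left out ran from -0.561 to 1.24, and mt-Co3 reversed to 1.22 with limma-voom; the cause was not tested. Of 40 genes named by size or level, 34 kept their call in each alternative that could be fitted for them (16 to 18), as did 30 of 74 called list genes; 64 of 218 list genes not called were called in at least 1. With the replicate block 1346 genes (12.6%) were called against PO and 64 (0.601%) against 2i+LIF LP. The numbers are only shared: correlations of same-numbered deviations were 0.263, 0.0351 and 0.128 with PO, and LIF LP replicate 3 correlated best with PO replicate 2 (0.223).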

Other observations

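The gene groups given here lie outside the lists and were chosen after their values were seen. Of 27 replication-dependent histone genes tested, which supply histones during DNA replication and whose transcripts normally lack a poly(A) tail, 16 were called higher and 0 lower by edgeR, against 5.84% and 6.11% of all tested genes, with a median log2 fold change of 3.05. Their summed level was 195, 40.3 and 27.4 CPM in PO and 295, 440 and 481 CPM in LIF LP, and the median from PO to 2i+LIF LP was 2.38. Of 82 ribosomal protein genes, many with copies that may share reads, 11 (13.4%) were called lower and 0 higher, and 24 were lower without PO replicate 1. Most were not called, and their summed level overlapped, at 53080, 175900 and 108900 CPM in PO and 77910, 104800 and 125900 CPM in LIF LP.

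Of 368 X-linked genes, 44 (12.0%) were called higher and 11 (2.99%) lower, against 5.6% and 6.19% of 10258 autosomal genes. The median X-linked log2 fold change was 0.223, and that from PO to 2i+LIF LP 0.271. Most were not called, and their summed level overlapped, at 20590, 20220 and 17240 CPM in PO and 19780, 20580 and 21610 CPM in LIF LP. Of 6 Y-linked genes tested in this male line, Ddx3y, Uty, Zfy1 and Usp9y were called higher, and the summed level was 208, 191 and 135 CPM in PO and 479, 479 and 342 CPM in LIF LP. Of 12 Hox genes, 2 were called higher and 4 lower, and 1 and 2 without PO replicate 1; their summed level was 366 CPM in PO replicate 1 and 57.5 and 64.1 CPM in its replicates.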
